A study of Mus musculus with 10 samples.

Results

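Interferon-stimulated genes are the genes that cells switch on when a type I interferon is sensed. They were taken here as a list of 37 gene symbols, matched by name to the 57825 genes of the deposited table, and every symbol matched exactly 1 listed gene. The table covers CD8+ T cells that had been co-cultured with 4T1 cells, a mammary carcinoma line of the Balb/c mouse, in 2 groups of 5 samples. Both groups came from spleens of female Balb/c mice, which the study's methods give as 7 to 8 weeks old in its experiments. After magnetic isolation the T cells of both groups were stimulated with plate-bound anti-CD3, anti-CD28 and IL-2 for 12 h, and both later spent 48 h with the tumor cells. Sodium acetate at 5 mM was given to 1 group (CD8+4T1+NaAc) and not to the other (CD8+4T1), and RNA was taken from the purified T cells, at day 3 by the labels. The co-culture methods place 24 h of acetate before the tumor cells, while the sample labels and the sequencing methods name it together with the co-culture, so whether it stayed present was not settled here. Acetate is a short-chain fatty acid that cells can convert to acetyl-CoA, and the comparison asks which transcripts of the T cells differed with it. Both groups met tumor cells, so T cells kept without 4T1 are not part of the comparison. The labels do not say whether samples came from separate mice or cultures, so the p-values measure the spread between these samples, which may be technical.

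Type I interferons (interferon alpha and beta) bind a receptor made of IFNAR1 and IFNAR2. The attached kinases JAK1 and TYK2 then act on STAT2, which joins IRF9 in a complex that binds interferon-stimulated response elements in promoters. The genes it drives encode proteins that degrade, trap or block viral RNA and proteins, sensors that detect foreign nucleic acid, and parts of the pathway itself. In CD8+ T cells this program is known to shape activation, survival and exhaustion, and interferon gamma, which these cells secrete, induces part of the same genes.

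Expression was measured as FPKM, the fragments of a gene per kilobase of its length scaled to the fragments of the sample, so that levels can be set side by side between genes. The values refer to between 16306447 and 17443395 fragments in the CD8+4T1 samples and between 16503701 and 18853726 in the CD8+4T1+NaAc samples. The listed genes hold 95.5 to 97.9% of those fragments without NaAc and 89.8 to 92.1% with it. Between 22291 and 24054 genes were above 0 in the CD8+4T1 samples, and between 20233 and 25088 in the CD8+4T1+NaAc samples, with replicate 1 of the latter lowest. Of all genes, 15710 had a mean of at least 0.5 FPKM and were compared with limma on log2(FPKM + 0.1). A gene is called here where its Benjamini-Hochberg adjusted p over all 15710 genes was under 0.05. Fold changes below are CD8+4T1+NaAc relative to CD8+4T1 on that log2 scale, which understates the change of genes at low FPKM.

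Of the 37 interferon-stimulated genes, 32 were tested. Ifit1, Oas1a, Oasl1, Oasl2, Rtp4 and Parp12 rose with NaAc, and Oas3, Isg20, Parp9, Parp14, Dtx3l, Trim30a and Ifi27 fell. The 6 that rose are 18.8% of those tested, beside 17.6% of all genes called higher, and the 7 that fell are 21.9%, beside 19.0% of all genes called lower. Both shares lie near those of all genes, and the median log2 fold change of the 32 genes was -0.0015, against -0.02 for all genes tested. A log2 fold change over 1 was reached by 5 of the called genes, all higher (15.6%, beside 4.87% of all genes), and by 0 that fell (beside 1.60%). All 5 averaged under 5 FPKM, whereas 4.87% is a share over genes of every level. The share of all genes at their level was not counted. The values of the groups did not overlap for 13 of the 32 genes (40.6%), against 26.4% of all genes. Oas1a and Oasl2 are among these 13 genes and among the 5 with a log2 fold change over 1. They averaged under 0.5 FPKM without NaAc and passed the filter only through the group in which they were high. So did Ifit3, which was not called. Of the other 29 genes 4 rose (13.8%), 3 of them with a log2 fold change over 1 (10.3%). Of all genes with at least 0.5 FPKM without NaAc, 16.0% rose, and 2.94% with a log2 fold change over 1. These shares too are over genes of every level.

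**Figure D1:**
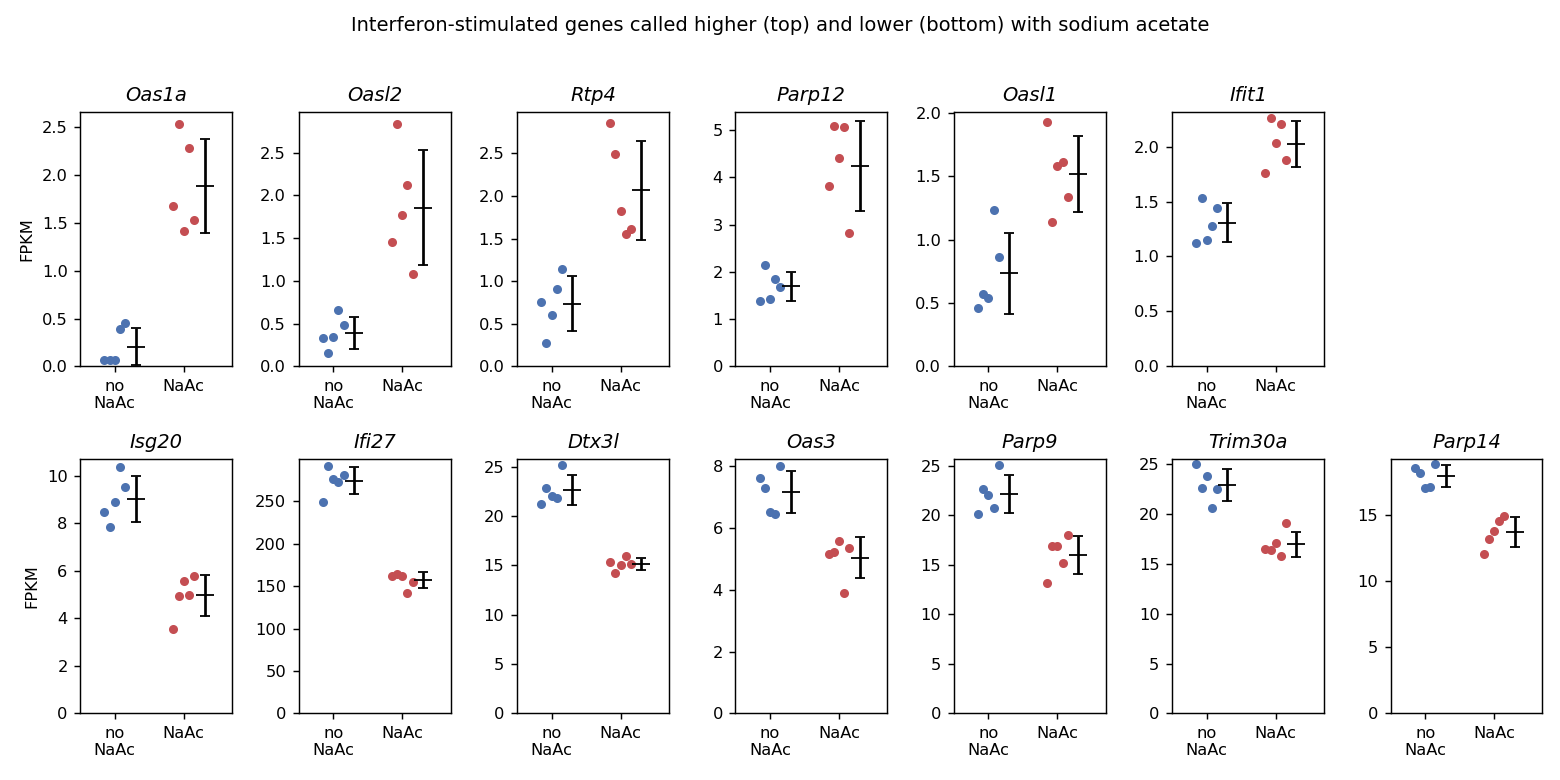
FPKM of the called interferon-stimulated genes in the 5 samples without NaAc and the 5 with NaAc, 1 panel per gene with its own axis from 0; points are samples and bars show the mean ± SD. Oas1a lies between 0.0608 and 0.450 FPKM without NaAc and between 1.41 and 2.53 with it, whereas Ifi27 lies between 249 and 292 FPKM without NaAc and between 142 and 164 with it.

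The calls were also counted by the level of the gene, as a description. Among the 13 tested interferon-stimulated genes with a mean under 5 FPKM, 6 rose (46.2%) and 0 fell, where 19.8% of all genes at that level rose and 7.86% fell. Without the 3 genes that passed the filter only through the NaAc group, 4 of 10 rose, where 16.7% of all genes did under the same restriction. Among the 19 with a mean of at least 5 FPKM, 0 rose and 7 fell (36.8%), where 15.4% of all genes at that level rose and 30.2% fell. The genes that rose averaged 1.05 to 2.96 FPKM over the 10 samples and those that fell 6.11 to 215.7 FPKM. Over all genes tested, the counts leaned the same way, with a median log2 fold change of 0.08 under 5 FPKM and -0.08 at or above it. The share of the 19 that fell is near that of all genes at that level. The 5 genes under the filter include Ifi44, which was low and lower still with NaAc.

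**Figure D2:**
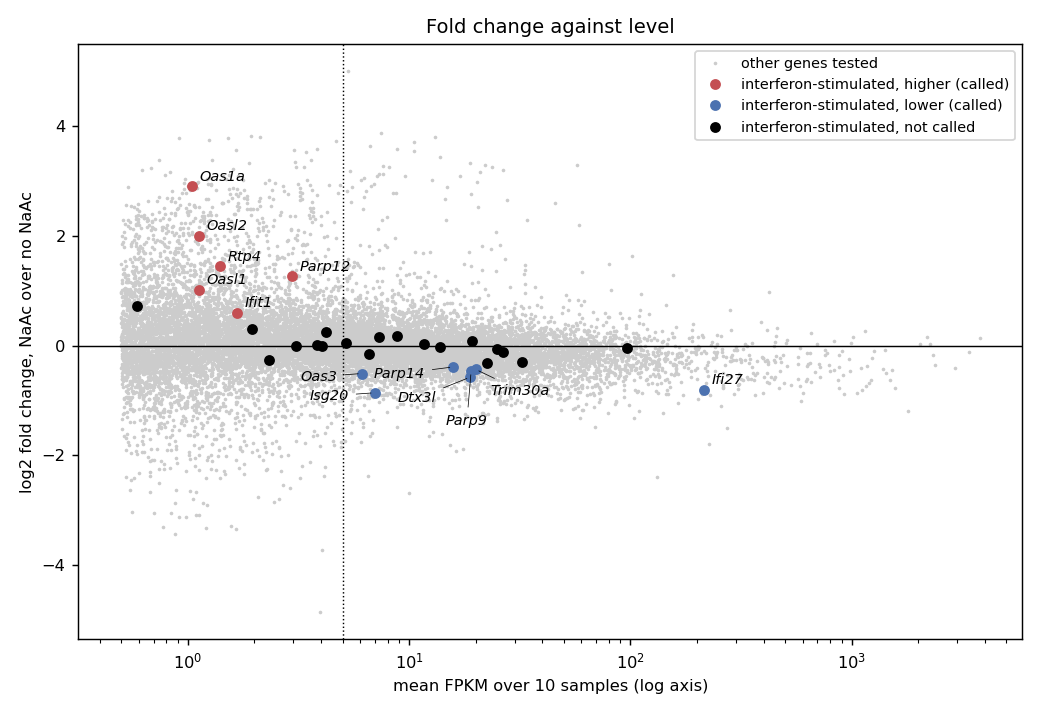
Log2 fold change (CD8+4T1+NaAc relative to CD8+4T1) against the mean FPKM over 10 samples on a log axis, with 15710 tested genes in grey and the 32 tested interferon-stimulated genes in colour; the dotted line marks 5 FPKM. The 6 genes called higher all lie left of the line and the 7 called lower all lie right of it.

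The 2'-5' oligoadenylate synthetases (OAS) sense double-stranded RNA and make the second messenger that activates RNase L. The OAS-like proteins are their relatives, and some of them lack that activity. Of this family 4 of 5 genes were tested and all 4 were called, 3 higher and 1 lower, where 36.5% of all genes were called in either direction. Oas1a and Oasl2 are the genes that passed the filter only through the NaAc group. Oas1a, which encodes a small OAS enzyme (ENSMUSG00000052776, listed at chr5:121034319-121045584, minus strand), measured 0.0635, 0.0608, 0.0651, 0.386 and 0.450 FPKM in the CD8+4T1 samples 1 to 5. With NaAc it measured 1.68, 2.53, 1.41, 2.29 and 1.53 FPKM. Every NaAc sample was above every sample without NaAc, and replicates 4 and 5 were the highest of the latter group. The means were 0.205 ± 0.196 and 1.89 ± 0.493 FPKM (SD, n = 5 each), and the log2 fold change was 2.91 (SE 0.42, limma adjusted p = 0.00039). These values rest on 2 to 14 fragments per sample without NaAc and 44 to 90 with it. Summed over the samples, and relative to the fragments that the FPKM were scaled to, Oas1a was 9.37-fold higher (95% interval 6.50 to 13.9, for counting error alone).

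Oasl2, which encodes an OAS-like protein with ubiquitin-like domains (ENSMUSG00000029561, chr5:115034997-115050295, plus strand), measured 0.329, 0.153, 0.346, 0.657 and 0.485 FPKM without NaAc. With NaAc the values were 1.46, 2.84, 1.77, 2.12 and 1.08 FPKM. The groups did not overlap, the highest samples without NaAc were again replicates 4 and 5, and replicate 2 was highest with NaAc for Oasl2 as for Oas1a. Its log2 fold change was 2.01 (SE 0.33, limma adjusted p = 0.000821), on 17 to 69 and 114 to 341 fragments. For Oasl1, which encodes an OAS-like protein known as a translational repressor of Irf7 (ENSMUSG00000041827, chr5:115061299-115075974, plus strand), the CD8+4T1 samples held 0.459, 0.572, 0.541, 1.23 and 0.860 FPKM. The CD8+4T1+NaAc samples held 1.93, 1.14, 1.58, 1.61 and 1.34 FPKM, so that replicate 4 without NaAc lay above replicate 2 with it. The log2 fold change of Oasl1 was 1.02 (SE 0.25, limma adjusted p = 0.00882), and it is the called gene whose groups overlapped.

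Oas3, which encodes the largest enzyme of the family (ENSMUSG00000032661, chr5:120891163-120915726, minus strand), went the other way. It measured 7.60, 7.30, 6.53, 6.45 and 8.01 FPKM without NaAc and 5.16, 5.21, 5.59, 3.89 and 5.34 FPKM with it, with no overlap. This is a fall of 29.8% in the mean, from 7.18 ± 0.679 to 5.04 ± 0.663 FPKM (SD, n = 5 each), with a log2 fold change of -0.51 (SE 0.10, limma adjusted p = 0.00315). Oas2 stayed under the filter, with 0.0827 to 0.300 FPKM without NaAc and 0.216 to 0.565 FPKM with it, and in a fit without a filter its limma adjusted p was 0.122. Among the OAS genes of the list, Oas3 was thus the most abundant in both groups. Transcripts of Oas1a share 57.6% of their stretches of 50 bases with those of its neighbour Oas1g, so fragments may have been split between the 2 genes and the level of Oas1a is uncertain. Oas1g, also under the filter, was listed at 0 to 0.337 FPKM without NaAc and 0.360 to 0.952 FPKM with it.

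IFIT1 binds viral RNA by its altered end and blocks its translation, and the other IFIT proteins are its relatives. Ifit1 (ENSMUSG00000034459, chr19:34618271-34627409, plus strand) held 1.13, 1.53, 1.15, 1.28 and 1.44 FPKM without NaAc and 1.76, 2.26, 2.03, 2.20 and 1.88 FPKM with it. The groups did not overlap, and the log2 fold change was 0.60 (SE 0.12, limma adjusted p = 0.00296), on 50 to 71 and 80 to 113 fragments. Ifit2 was at 4.54 to 5.62 FPKM without NaAc and at 4.51 to 8.30 FPKM with it, where replicate 1 alone was above 5 FPKM (log2 fold change 0.04, SE 0.16, limma adjusted p = 0.857). Ifit3 (ENSMUSG00000074896, chr19:34560931-34566131, plus strand) measured 0.720, 0.230, 0.246, 0.522 and 0.382 FPKM without NaAc. With NaAc it measured 0.335, 1.003, 0.833, 0.542 and 1.10 FPKM. The groups overlapped, and on only 7 to 33 fragments per sample its log2 fold change of 0.73 (SE 0.38) had a limma adjusted p of 0.159. Without replicate 1 of the CD8+4T1+NaAc group the log2 fold change of Ifit3 was 0.95 and its limma adjusted p 0.0452. Ifit3b was below the filter at 0 to 0.123 FPKM and 0 to 0.212 FPKM. Transcripts of Ifit3 share 51.2% of their stretches of 50 bases with Ifit3b, so the division of fragments between this pair is uncertain too.

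Rtp4, which encodes a receptor-transporting protein that also restrains interferon responses (ENSMUSG00000033355, chr16:23339041-23432972, plus strand), measured 0.758, 0.269, 0.604, 0.911 and 1.14 FPKM without NaAc and 2.85, 2.49, 1.82, 1.55 and 1.61 FPKM with it. The groups did not overlap, and the log2 fold change was 1.44 (SE 0.31, limma adjusted p = 0.00447). Its listed span overlaps a long noncoding gene on the same strand, Gm45338, with which it shares 11.6% of its stretches of 50 bases and which averaged 0.00407 FPKM. Rsad2, which encodes viperin, an enzyme that makes a chain-terminating nucleotide, averaged under 0.5 FPKM and was not tested. Its 0.110, 0.238, 0.127, 0.238 and 0.238 FPKM without NaAc and 0.540, 0.404, 0.475, 0.532 and 0.458 FPKM with NaAc did not overlap. Those values rest on 8 to 18 and 33 to 40 fragments, a 2.52-fold difference of the sums (95% interval 1.90 to 3.37, counting error alone), and without a filter Rsad2 had a log2 fold change of 1.03 (limma adjusted p = 0.0093). Its neighbour Cmpk2, which encodes a mitochondrial nucleotide kinase, was under the filter too, at 0.220 to 0.388 and 0.140 to 0.434 FPKM.

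Isg20, which encodes an RNA exonuclease (ENSMUSG00000039236, chr7:78563172-78570144, plus strand), measured 8.46, 7.83, 8.87, 10.3 and 9.51 FPKM without NaAc and 3.55, 4.93, 5.57, 4.96 and 5.79 FPKM with it. All NaAc samples were below all others, and the mean fell by 44.9%, from 9.003 ± 0.968 to 4.96 ± 0.873 FPKM (SD, n = 5 each; log2 fold change -0.86, SE 0.13, limma adjusted p = 0.000467). The remaining antiviral effectors of this kind were not called. Bst2 (tetherin, which holds budding virus at the cell surface) was among the most abundant, at 97.5 ± 6.78 and 94.6 ± 12.3 FPKM (SD, n = 5 each; 95% interval of its log2 fold change -0.25 to 0.15). Eif2ak2, the RNA-activated kinase PKR that stops translation, stood at 7.74 to 9.94 and 8.96 to 9.50 FPKM, and Samd9l, an inhibitor of translation, at 3.31 to 4.12 and 3.81 to 4.97 FPKM. Their log2 fold changes of 0.18 and 0.25 had limma adjusted p-values of 0.0721 and 0.0588. Without replicate 5 of the CD8+4T1 group Eif2ak2 was called (0.24, limma adjusted p = 0.00386), and without replicate 1 of the CD8+4T1+NaAc group Samd9l was (0.31, limma adjusted p = 0.01).

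The Mx GTPases, which trap viral nucleoproteins, were not called. Mx1 lay at 10.97 to 12.2 FPKM without NaAc and at 8.501 to 13.9 FPKM with it, and Mx2 at 6.08 to 7.77 and 4.26 to 7.38 FPKM. Their log2 fold changes were 0.02 (95% interval -0.23 to 0.27) and -0.15 (-0.46 to 0.16). Replicate 1 was the lowest of the NaAc samples for both genes. Without that sample the log2 fold changes were 0.14 for Mx1 (limma adjusted p = 0.0857) and -0.02 for Mx2 (limma adjusted p = 0.892).

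ISG15 is a ubiquitin-like protein that is attached to other proteins, HERC6 is the ligase that attaches it in the mouse, and USP18 removes it and also dampens IFNAR signalling. None of their 3 genes was called. Isg15 was at 27.5 to 44.4 FPKM without NaAc (median 35.2) and 18.1 to 36.2 FPKM with it (median 29.5), with replicate 1 lowest in both groups (log2 fold change -0.29, SE 0.18, limma adjusted p = 0.247). Without replicate 1 of the CD8+4T1+NaAc group the log2 fold change of Isg15 was -0.13 (limma adjusted p = 0.45). With the replicate number as a block Isg15 was called lower (limma adjusted p = 0.0351), though the numbers were not taken to pair the samples. Usp18 was at 1.33 to 2.02 and 1.89 to 2.83 FPKM (0.30, limma adjusted p = 0.131), and Herc6 at 2.19 to 2.75 and 1.71 to 2.45 FPKM (-0.27, limma adjusted p = 0.0793). Without replicate 3 of the CD8+4T1+NaAc group Herc6 was called lower, at -0.33 (limma adjusted p = 0.0498).

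The PARP9, PARP12 and PARP14 proteins transfer or bind ADP-ribose, and DTX3L is the ubiquitin ligase that pairs with PARP9. All 4 of their genes were called, 1 higher and 3 lower, where 36.5% of all genes were called in either direction. Parp12 (ENSMUSG00000038507, chr6:39063344-39095283, minus strand) measured 1.38, 2.14, 1.43, 1.84 and 1.67 FPKM without NaAc and 3.82, 5.08, 4.40, 5.06 and 2.82 FPKM with it. Its groups did not overlap, its mean was 2.51-fold higher, and its log2 fold change was 1.26 (SE 0.18, limma adjusted p = 0.000321). As for Oasl2, replicate 2 was highest and replicate 5 lowest among the NaAc samples.

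Dtx3l (ENSMUSG00000049502, chr16:35746881-35759521, minus strand) measured 21.2, 22.8, 22.1, 21.9 and 25.2 FPKM without NaAc and 15.3, 14.2, 15.03, 15.9 and 15.2 FPKM with it. The NaAc samples lay close together and well below the others, a fall of 33.1% (log2 fold change -0.57, SE 0.05, limma adjusted p = 3.96e-05). Parp9 (ENSMUSG00000022906, chr16:35758840-35792975, plus strand) measured 20.1, 22.6, 22.1, 20.7 and 25.0 FPKM without NaAc and 13.1, 16.9, 16.9, 15.2 and 18.0 FPKM with it, again with no overlap (-0.47, SE 0.09, limma adjusted p = 0.00232). Parp9 and Dtx3l lie head to head, and their listed spans overlap by 682 bases on opposite strands. The strand setting of the counting is not given in the sources used here, so reads from the shared stretch cannot be assigned to either gene. Parp14, on the same chromosome, fell by 23.6% in the mean, with samples at 17.1 to 18.9 FPKM without NaAc and 12.04 to 14.9 FPKM with it (-0.39, SE 0.06, limma adjusted p = 0.000837).

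Trim30a, a ubiquitin ligase family member that restrains inflammatory signalling, fell by 26.0% in the mean, with samples at 20.7 to 25.0 FPKM without NaAc and 15.8 to 19.1 FPKM with it (log2 fold change -0.43, SE 0.07, limma adjusted p = 0.000515). Trim25, the ubiquitin ligase that activates RIG-I, was at 26.6 to 29.0 FPKM without NaAc and 24.5 to 26.6 FPKM with it. The samples of Trim25 did not overlap, yet its log2 fold change of -0.11 (SE 0.04) was not called (limma adjusted p = 0.0633). Without replicate 1 of the CD8+4T1+NaAc group it was called lower, at -0.12 (limma adjusted p = 0.0289).

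Ifi27, which encodes a small mitochondrial protein (ENSMUSG00000064215, chr12:103400470-103406498, plus strand), was the most abundant of the 37 genes. It measured 249, 292, 277, 273 and 281 FPKM without NaAc and 162, 164, 162, 142 and 155 FPKM with it. The groups were far apart relative to their spread, and the mean fell by 42.7%, from 274 ± 15.8 to 157 ± 9.33 FPKM (SD, n = 5 each). The log2 fold change was -0.80 (SE 0.06, limma adjusted p = 1.54e-05), on 6102 to 7470 and 3514 to 4539 fragments. Ifi44, a gene of little known function, was below the filter at 0.450 to 0.890 FPKM without NaAc and 0.124 to 0.398 FPKM with it, with no overlap. Without a filter it had a log2 fold change of -0.96 (limma adjusted p = 0.0273). Ifi35 (20.2 to 26.8 FPKM over both groups) and Xaf1, a promoter of apoptosis (3.01 to 4.76 FPKM), were not called, with log2 fold changes of -0.06 and 0.0026.

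The sensor genes Ifih1, Dhx58 and Zbp1 and the transcription factor genes Stat2, Irf9 and Irf7 were not called. Ifih1 (MDA5, a receptor for long double-stranded RNA), Dhx58 (LGP2, its cofactor) and Zbp1 (a sensor of Z-form nucleic acid that triggers cell death) had log2 fold changes of -0.0021, 0.16 and -0.32. That of Dhx58 was 0.09 without replicate 1 of the CD8+4T1 group and 0.24 without replicate 1 of the CD8+4T1+NaAc group, not called in either fit. Zbp1 was at 23.2 to 26.4 FPKM without NaAc and 12.6 to 23.7 FPKM with it, and without replicate 1 of the CD8+4T1+NaAc group, the lowest, its log2 fold change was -0.15 (limma adjusted p = 0.0463). Stat2 held 18.8, 17.0, 17.5, 19.5 and 20.8 FPKM without NaAc and 20.7, 19.5, 18.8, 20.1 and 20.3 FPKM with it. Irf9, its DNA-binding partner, held 12.8, 12.7, 14.2, 14.8 and 14.4 FPKM without NaAc and 10.9, 13.7, 14.3, 14.6 and 14.8 FPKM with it. Irf7, the factor that amplifies interferon alpha production, held 3.42, 4.02, 4.14, 3.84 and 4.70 FPKM without NaAc and 3.38, 5.16, 3.93, 3.63 and 4.13 FPKM with it. All 3 overlapped between the groups. The 95% intervals of their log2 fold changes ran from -0.04 to 0.22 for Stat2, from -0.21 to 0.17 for Irf9 and from -0.26 to 0.26 for Irf7.

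**Figure D3:**
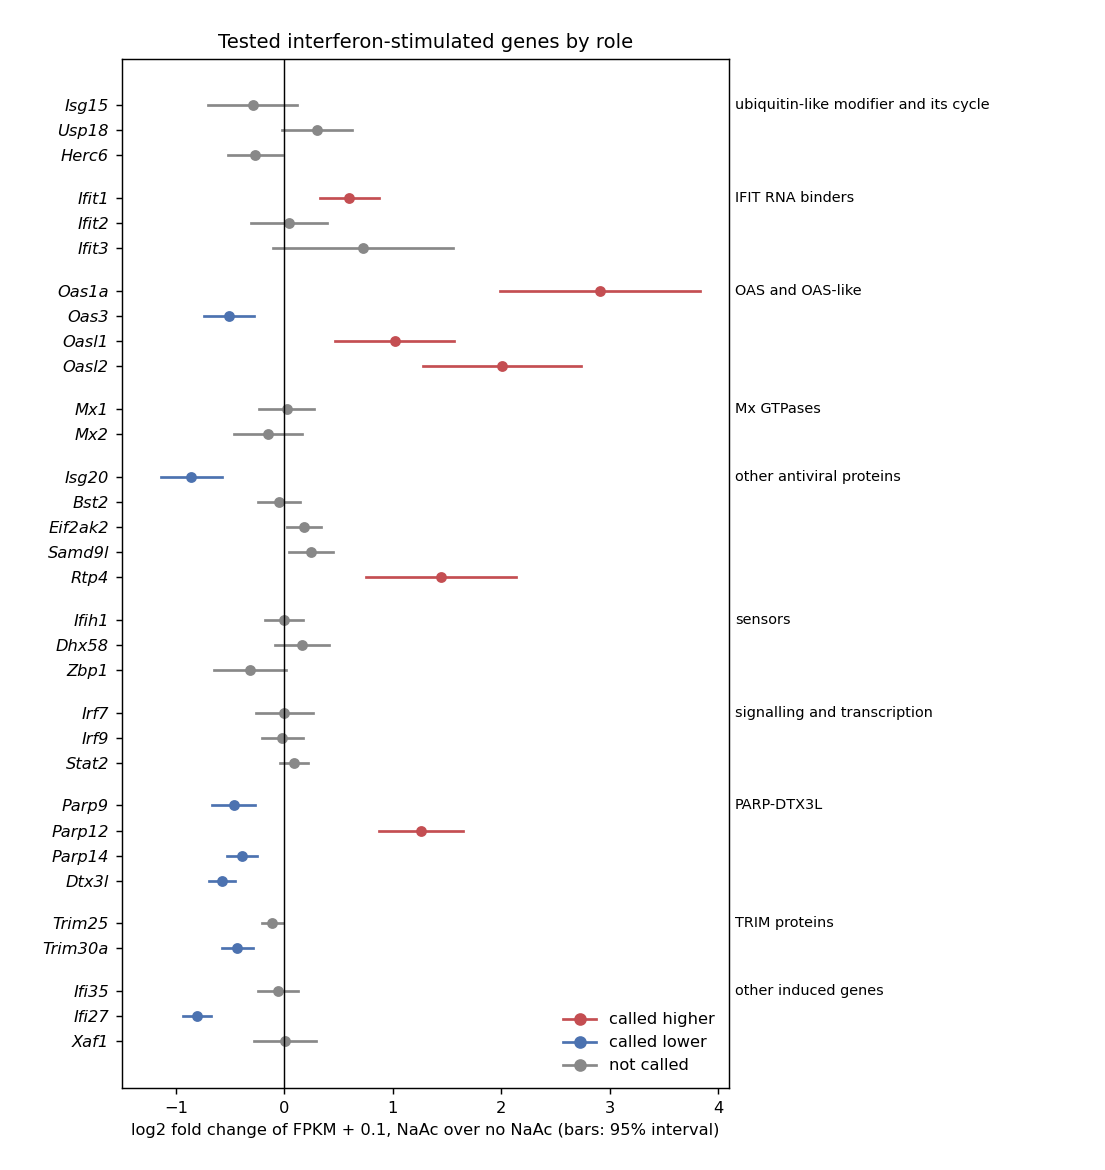
Log2 fold change of FPKM + 0.1 (CD8+4T1+NaAc relative to CD8+4T1) of the 32 tested interferon-stimulated genes, grouped by role; points are estimates, bars are 95% intervals, and colour shows the call. The OAS and PARP-DTX3L groups hold called genes on both sides of 0, from 2.91 (Oas1a) to -0.51 (Oas3) and from 1.26 (Parp12) to -0.57 (Dtx3l), whereas the intervals of Stat2, Irf9 and Irf7 include 0.

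The groups did not overlap for 12 of the 13 called genes, against 69.8% of all genes called. The 12 include Oas1a and Oasl2, which passed the filter only through the NaAc group. Overlap was read from the same values as the calls, so it is not separate support for them. All 13 calls kept their direction and stayed called in every alternative fit that still tested them, each sample left out in turn included.

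The promoters were searched for the sequence element of the pathway. RefSeq windows of 300 bases (250 before and 50 after the transcription start, build GRCm38.p6) covered 27 of the 37 genes, all but Mx1, Mx2, Usp18, Zbp1, Parp9, Parp14, Dhx58, Rtp4, Ifi27 and Oas2. The windows were read on both strands for GAAA, any 2 bases and GAAA again, the core of the interferon-stimulated response element, counting overlapping matches. It was found in 12 of these 27 genes (44.4%), against 3.99% of all 27025 genes with a window and 3.44% of all 32851 windows. By call, it was present in 2 of 5 genes that rose, 2 of 4 that fell, 6 of 14 that were not called and 2 of 4 that were not tested. A match describes letters in this window and is not evidence of binding. The matches of both genes that rose, both that fell and 3 abundant or central genes that were not called are shown (for Trim30a at both of its listed starts) with 20 bases on either side, on the strand of the gene, with matching bases in capitals. On the opposite strand the same core reads TTTC, any 2 bases and TTTC.

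Oas1a (rose), chr5:120907510-120907565, minus strand: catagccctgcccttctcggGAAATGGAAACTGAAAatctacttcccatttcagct
Ifit1 (rose), chr19:34640765-34640833, plus strand: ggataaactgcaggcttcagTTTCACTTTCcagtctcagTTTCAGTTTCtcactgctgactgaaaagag
Oas3 (fell), chr5:120777705-120777754, minus strand: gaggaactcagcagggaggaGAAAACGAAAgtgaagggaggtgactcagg
Trim30a (fell), chr7:104465200-104465249, minus strand: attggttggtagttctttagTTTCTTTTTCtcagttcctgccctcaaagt
Trim30a (fell), other start, chr7:104446094-104446143, minus strand: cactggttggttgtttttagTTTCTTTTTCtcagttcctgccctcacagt
Isg15 (not called), chr4:156200855-156200916, minus strand: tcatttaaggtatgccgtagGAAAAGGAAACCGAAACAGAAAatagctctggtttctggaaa
Bst2 (not called), chr8:71537567-71537622, minus strand: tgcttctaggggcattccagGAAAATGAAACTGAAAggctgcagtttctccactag
Stat2 (not called), chr10:128270256-128270305, plus strand: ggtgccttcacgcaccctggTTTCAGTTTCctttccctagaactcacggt

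Oas1a and Bst2 carry the same arrangement of 2 overlapping matches, Isg15 carries 3 and Ifit1 carries 2 that are separate. Oas1a rose, Bst2 and Isg15 were not called, and genes of every call were found both with and without a match. Ifit3 and Ifit3b hold 2 matches each, in stretches that are identical between the pair:

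Ifit3, chr19:34583353-34583436, and Ifit3b, chr19:34607749-34607832, plus strand: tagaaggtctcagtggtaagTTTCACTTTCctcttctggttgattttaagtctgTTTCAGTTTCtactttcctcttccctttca

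The rest of the interferon pathway was read from a list of 51 genes, of which 29 were tested, 5 rose (17.2%, beside 17.6% of all genes) and 3 fell (10.3%, beside 19.0%). Interferon genes themselves were close to undetected. Of 19 type I and type III interferon genes, 10 were at 0 in every sample, which allows up to 3 fragments per sample, and no gene exceeded 5 fragments in a sample. Summed over the 19 genes there were 0 to 6 fragments without NaAc and 1 to 5 with it. Ifng, the gene of interferon gamma, was abundant, at 395 to 560 FPKM without NaAc and 297 to 552 FPKM with it, and was not called (log2 fold change -0.27, SE 0.17, limma adjusted p = 0.243). Both subunits of the type I receptor were expressed and not called, with Ifnar1 at 28.0 ± 0.962 and 31.2 ± 4.02 FPKM and Ifnar2 at 7.70 ± 0.260 and 7.48 ± 0.952 FPKM (SD, n = 5 each). Ifngr1, the ligand-binding subunit of the interferon gamma receptor, rose from 26.6 ± 1.27 to 36.7 ± 3.45 FPKM (log2 fold change 0.46, SE 0.07, limma adjusted p = 0.000383), and Ifngr2 and Il10rb were not called.

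The kinase Tyk2 rose from 16.9 ± 1.18 to 20.98 ± 0.350 FPKM (SD, n = 5 each; log2 fold change 0.31, limma adjusted p = 0.00107), with no overlap between groups, and Jak1 and Jak2 were not called. The feedback inhibitors Socs3 and Socs1, which block cytokine receptor kinases, rose as well. Socs3 went from 11.9 ± 3.01 to 26.3 ± 6.07 FPKM (1.13, SE 0.19, limma adjusted p = 0.0011) and Socs1 from 10.8 ± 3.34 to 18.0 ± 2.82 FPKM (0.76, SE 0.19, limma adjusted p = 0.00936). Pias1, another inhibitor, was not called (0.08, limma adjusted p = 0.385). The phosphatase gene Ptpn6 (SHP-1) fell from 125.2 ± 4.05 to 94.7 ± 2.22 FPKM (-0.40, limma adjusted p = 5.91e-05). Irf2, a repressor of interferon-stimulated genes, fell from 9.92 ± 0.459 to 6.98 ± 0.677 FPKM (-0.50, limma adjusted p = 0.000294), while Irf1, Irf3, Irf5 and Irf8 were not called. Among 9 tested genes of nucleic acid sensing, the adaptor gene Ticam1 rose (0.16, limma adjusted p = 0.045) and the kinase gene Tbk1 fell (-0.18, limma adjusted p = 0.0074). Leaving out replicate 1 of the CD8+4T1+NaAc group raised the number of pathway genes called higher from 5 to 10, and leaving out any other single sample gave 4 or 5.

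**Figure D4:**
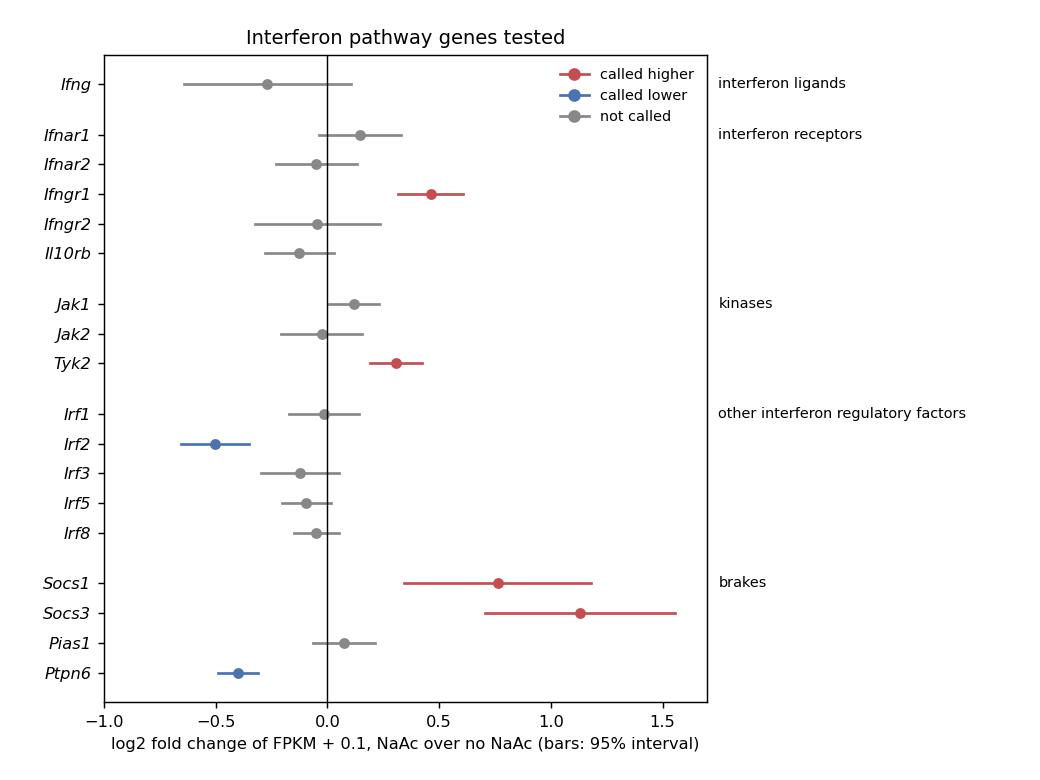
Log2 fold change of FPKM + 0.1 (CD8+4T1+NaAc relative to CD8+4T1) of the tested ligand, receptor, kinase, regulatory factor and inhibitor genes of the interferon pathway; points are estimates, bars are 95% intervals, and colour shows the call. Ifngr1, Tyk2, Socs1 and Socs3 are called to the right of 0 and Irf2 and Ptpn6 to the left, and the interval of Ifng spans 0.

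A further 39 interferon-stimulated genes that are not among the 37 also included genes called in either direction. Of 34 tested, 9 rose (26.5%, beside 17.6% of all genes) and 7 fell (20.6%, beside 19.0%), with a median log2 fold change of 0.06. Under 5 FPKM 2 of 8 rose and 0 fell, where 19.8% of all genes at that level rose and 7.86% fell. At or above 5 FPKM 7 of 26 rose and 7 fell (26.9% each), where 15.4% of all genes rose and 30.2% fell. The largest rises were of Ifi204, a DNA-binding protein of the HIN200 family (0.912 ± 0.0967 to 3.26 ± 0.681 FPKM; log2 fold change 1.71, limma adjusted p = 3e-05), and Ifitm3, which blocks viral entry from endosomes (34.8 ± 5.42 to 67.1 ± 17.5 FPKM; 0.92, limma adjusted p = 0.00214). The largest falls were of Slfn1, a growth regulator of T cells (34.8 ± 1.39 to 16.6 ± 1.39 FPKM; -1.07, limma adjusted p = 9.05e-06), and Ifi27l2a, a relative of Ifi27 (191.6 ± 37.1 to 102.6 ± 15.3 FPKM; -0.89, limma adjusted p = 0.00156). Ifi27 and Ifi27l2a, both abundant, thus both fell. Of 15 GTPase genes that interferon gamma induces, Gbp4 rose and Iigp1, Gbp5 and Gbp7 fell, and of 10 MHC class I and immunoproteasome genes 2 rose and 5 fell, where 17.6% of all genes rose and 19.0% fell.

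Markers of the tumor line moved with the groups. Of 15 epithelial and 4T1 markers 9 were tested, and 8 of them rose with no overlap between groups, where 17.6% of all genes rose and 26.4% did not overlap. Krt7, Cldn3 and Ocln passed the filter only through the NaAc group, and of the other 6 markers Krt8, Krt18, Lcn2, Itgb4 and Lamb3 rose and Epcam was not called. The summed level of all 15 listed markers was 9.27 to 18.9 FPKM without NaAc and 68.7 to 181.2 FPKM with it. The keratin gene Krt8 measured 1.77, 2.78, 2.16, 4.74 and 5.66 FPKM without NaAc and 26.4, 53.5, 30.7, 40.3 and 19.96 FPKM with it. The order of samples within a group was shared with Krt8 by some of the 6 genes that rose and not by others. Without NaAc, replicates 4 and 5 were the highest for Krt8, Oas1a, Oasl1, Oasl2 and Rtp4, and replicate 2 was for Parp12 and Ifit1. With NaAc, replicate 2 was the highest for Krt8, Oas1a, Oasl2, Parp12 and Ifit1 and replicate 1 for Oasl1 and Rtp4, and replicate 5, the lowest for Krt8, was the lowest for Oasl2 and Parp12 and for none of the other 4. The part of tumor cell RNA in the rise of these interferon-stimulated genes was not tested. Of 11 T cell markers, all of them tested, 1 rose and 6 fell, beside 17.6% and 19.0% of all genes, and their summed level was 827.3 to 928.0 FPKM without NaAc and 731.9 to 898.4 FPKM with it. Its part in the falls was not tested either, and in such bulk samples fewer cells of a type and less RNA per cell cannot be told apart.

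**Figure D5:**
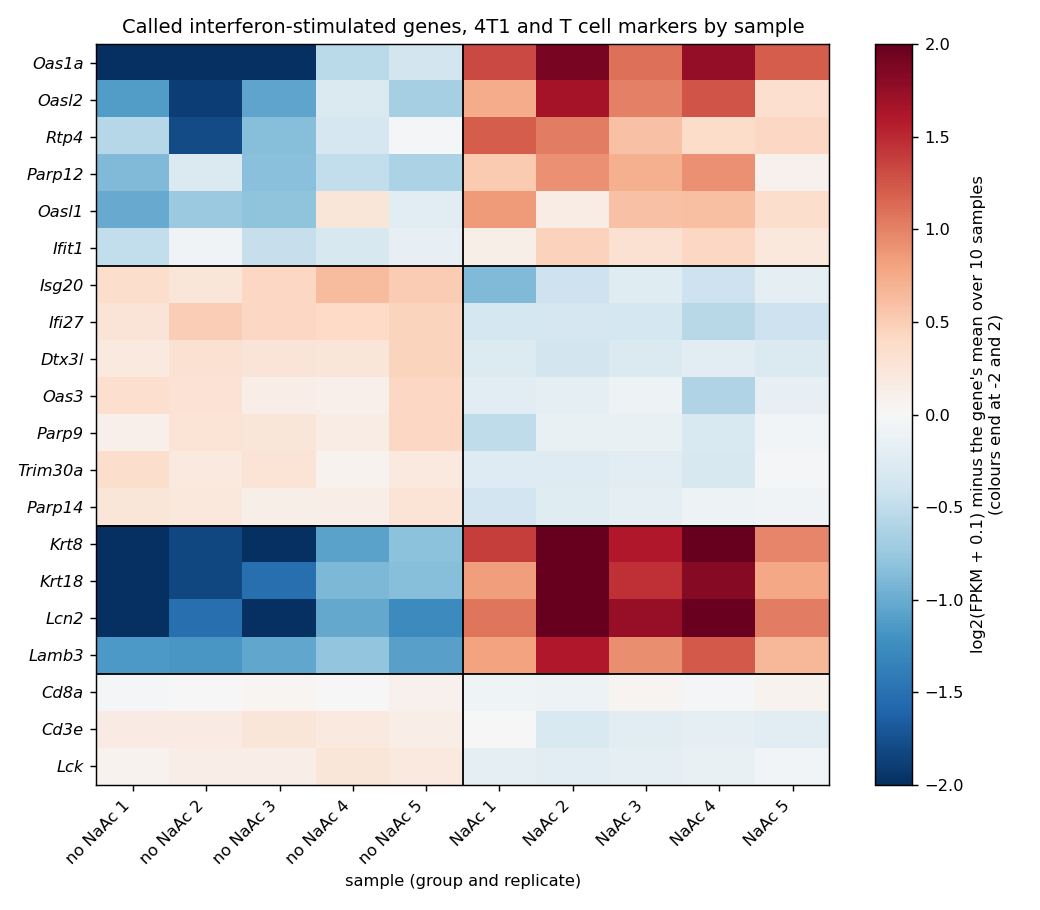
Each gene's log2(FPKM + 0.1) in each of the 10 samples minus its mean over them, for the 13 called interferon-stimulated genes, 4 epithelial or 4T1 markers and 3 T cell markers; colours end at -2 and 2. The 4 tumor cell markers and, apart from Oasl1 in replicate 4, the 6 genes that rose are below their mean in all 5 samples without NaAc, and within that group Krt8, Oas1a, Oasl1, Oasl2 and Rtp4 are highest in replicates 4 and 5, and Parp12 and Ifit1 in replicate 2.

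Marker lists of other cells that make or answer interferon were read in the same way, without and with NaAc. So few of these genes were tested, beside 17.6% of all genes called higher, that the counts say nothing of the cell types. Of 7 markers of plasmacytoid dendritic cells 3 were tested and 1, Pacsin1, rose, with a summed level of 14.9 to 16.3 FPKM and 15.5 to 22.5 FPKM, and Siglech was at 0 in every sample. Of 10 macrophage and monocyte markers 3 were tested and 1 rose, Lyz2, from 0.536 ± 0.270 to 1.12 ± 0.385 FPKM (SD, n = 5 each; limma adjusted p = 0.0328), C1qb was at 0 in every sample, and the summed level was 25.1 to 34.6 and 25.9 to 29.9 FPKM. Of 5 neutrophil markers 1 was tested, and the list summed to 0.507 to 1.17 and 2.14 to 4.56 FPKM, with S100a9 at 0 in every sample and S100a8, the gene tested, higher (log2 fold change 2.86, limma adjusted p = 0.00181), at 0.398 FPKM without NaAc, so that it passed the filter only through the NaAc group. Of the markers of conventional dendritic cells 1 of 5 was tested (sums 1.72 to 2.73 and 1.504 to 2.16 FPKM, Cd209a at 0) and of B cells 2 of 6 (4.28 to 5.27 and 5.19 to 6.58 FPKM), and none of these 3 was called. None of the 5 NK cell markers passed the filter (0 to 0.242 and 0.0537 to 0.523 FPKM). Siglech, C1qb, S100a9 and Cd209a were each the only marker of their list at 0 in every sample. The other markers of those lists were above 0 in some sample, so these zeros do not show that a cell type was absent. The part of these cells in the results was not tested.

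Relative scaling bears on these directions. When every sample was rescaled to the same total of the listed genes, the median over all genes (log2 fold change) shifted from -0.02 to 0.16, and when it was scaled to the T cell markers, to 0.12. Calls over all genes then went from 2764 higher and 2978 lower to 4918 and 1386, and to 4126 and 1367. The 13 calls among the interferon-stimulated genes held under both scalings, and Usp18, Eif2ak2, Samd9l, Dhx58 and Stat2 were called higher in addition under both, which makes 11 higher and 7 lower. The additional calls are made of the log2 fold changes given above plus a shift that all genes share, 0.09 for Stat2 becoming 0.27 and 0.23.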

How the data were processed

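The authors deposited FPKM per gene and sample, with the gene length as an other, unnormalized column. RNA was extracted with Trizol, prepared with a NEBNext Ultra kit and sequenced on a NovaSeq instrument. The submitters' processing notes name fastp, HISAT2 2.0.5, StringTie 1.3.3b and featureCounts 1.5.0-p3. The genome build, annotation and strand setting are not given in the sources used here, and the listed positions are not those of GRCm38 (1467 of 52073 shared genes have the same start and end). Multiplying FPKM by length gave whole multiples of 1 fragment (within 0.1) for 100% of values, and so the fragments behind each value.

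The 5 samples of each group were compared by limma (version 3.58.1, R 4.3.3; trend and robust options on), using log2(FPKM + 0.1) of genes whose mean was 0.5 FPKM or more. FPKM are not counts, so limma stands in for the count model (DESeq2) that the authors used. Intervals of fold changes are 95% intervals from the same fit, and intervals of fragment sums are exact binomial ones. The limma script was checked on simulated data with the same variability for every gene. Far fewer genes changed in them than were called here, and no sample was made to stand apart. The check therefore covers the script and not how the test behaves on data such as these. Figures were drawn with matplotlib 3.10.9 in Python 3.11.15.

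The interferon-stimulated genes, the pathway and marker lists and the tests were chosen with earlier results of these data known. All 37 genes are named. Values per sample are given for the 12 tested genes with the largest fold change and for Stat2, Irf9 and Irf7, and Rsad2 and Krt8 were added after their values were seen. Of the other lists, the tested ligand, receptor, kinase and inhibitor genes were named. Of longer lists at most 2 rises and 2 falls were named, except that all called GTPase genes were. The cell markers named beyond this were chosen after their values were seen. Alternatives were other pseudocounts, filters, scalings, thresholds and moderation, sample weights, the replicate number as a block, protein-coding genes alone, voom on the recovered fragments, and samples left out. Shared stretches of 50 bases were counted in GENCODE transcripts of GRCm38. A gene of the interferon pathway is not reported here.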

Additional observations from a re-analysis of the deposited data

Results flagged for a closer look

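Each of the 64 groups of 5 samples (32 genes in 2 groups) was checked for a sample that stands apart, by the gap to its nearest neighbour as a share of the range of the group. That share was above 0.71 in 8 groups, and chance sets apart about 1 in 20 groups. In the CD8+4T1+NaAc group, replicate 1 was highest for Ifit2 (share 0.913) and lowest for Zbp1 (0.813) and Irf9 (0.742), replicate 4 was lowest for Oas3 (0.781), and replicate 3 was lowest for Eif2ak2 (0.839). In the CD8+4T1 group, replicate 4 was highest for Bst2 (0.789), replicate 5 was highest for Eif2ak2 (0.796), and replicate 1 was lowest for Dhx58 (0.766). Of the 8 samples, 3 are replicate 1 of the CD8+4T1+NaAc group, which also had the fewest genes above 0 (20233). Of these 7 genes Oas3 was called, and it stayed called without the sample that stood apart.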

How the results depend on the processing

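The 13 called interferon-stimulated genes kept their direction and their call in every alternative fit that tested them, but a filter at a mean of 5 FPKM removed all 6 that rose. Their counts (6 higher, 7 lower) became 0 higher with that filter and 11 higher after rescaling to the same total or to T cell markers. With an absolute log2 fold change over 1 they became 5 higher and 0 lower. Of those 5, only Oas1a (1.26) and Oasl2 (1.01) stayed over 1 with a pseudocount of 1. Parp12 was then at 0.95, Rtp4 at 0.82 and Oasl1 at 0.55, still called. With a pseudocount of 0.01 all 5 were over 1, and with single samples left out Oasl1 ranged from 0.89 to 1.20. All genes called higher became 1257 with the filter, 4918 after rescaling to the same total, 1832 at an adjusted p under 0.01 and 765 with a log2 fold change over 1, and all genes called lower became 1386, 1367 (T cell markers), 1870 and 251. Pathway genes called higher became 9 without replicate 1 of both groups, 12 and 11 with the scalings, 10 with sample weights and 1 with a log2 fold change over 1, and those called lower became 5 without replicate 1 of both groups, 5 with sample weights and 0. Further interferon-stimulated genes called higher became 18 and 14 with the scalings and 1 with a log2 fold change over 1, and those called lower 1.

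With each sample left out in turn, the interferon-stimulated genes gave 6 to 8 higher and 7 to 9 lower, all genes 2347 to 3379 and 2526 to 3551, the pathway 4 to 10 and 3 to 4, and the further genes 8 to 12 and 6 to 8. Genes that were not called and changed sign in these fits ranged from -0.12 to 0.093 (Ifit2), -0.040 to 0.14 (Mx1), -0.11 to 0.013 (Bst2), -0.044 to 0.042 (Ifih1), -0.090 to 0.059 (Irf7), -0.050 to 0.059 (Irf9), -0.10 to 0.0043 (Ifi35) and -0.069 to 0.085 (Xaf1).

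Other sign changes were of uncalled genes. Rescaling to the same total gave 0.025 for Mx2, 0.13 for Bst2, 0.17 for Ifih1, 0.17 for Irf7, 0.16 for Irf9, 0.067 for Trim25 and 0.12 for Ifi35, and T cell scaling gave 0.095 for Bst2, 0.14 for Ifih1, 0.14 for Irf7, 0.13 for Irf9, 0.035 for Trim25 and 0.084 for Ifi35. Without replicate 1 of both groups Ifit2 was at -0.12, Ifih1 at 0.0070, Irf7 at 0.0038 and Irf9 at 0.035, and sample weights gave -0.10 for Ifit2, 0.022 for Ifih1 and 0.035 for Irf9. Irf7 was at 0.00030 with a pseudocount of 1 and 0.0054 with voom, and Xaf1 at -0.014 with median-ratio scaling. Some uncalled genes were called under other settings: Trim25 lower with median-ratio scaling (adjusted p = 0.0343) and sample weights (0.0257), Herc6 lower with voom (0.0401), Samd9l higher with protein-coding genes alone (0.0425), and Ifit3 (0.0178) and Samd9l (0.0135) higher with sample weights. Without replicate 1 of both groups, Ifit3 (0.0182) and Samd9l (0.0134) were called higher and Zbp1 (0.029) lower. The cause of these changes was not tested.

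With the replicate number as a block, 7 interferon-stimulated genes were called higher and 8 lower, adding Samd9l (adjusted p = 0.0288) and Isg15 (0.0351), and all genes gave 2551 and 2848. Same-numbered samples correlated at -0.03 to 0.07 in their deviations from the group means, and 4 of 10 samples correlated best with their own number, so the numbers were not taken to pair the samples. Depth limits the low genes most: Ifit3, Ifit3b, Oas1a, Oas2, Oasl2, Rsad2, Cmpk2, Rtp4 and Ifi44 rest on under 20 fragments in at least 1 sample.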
